A study of Mus musculus with 12 samples.

Results

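The regions described here are places in the mouse genome that were listed as bound by NeuroD2 and by none of the other 4 proteins mapped in the same cells. They were chosen from the deposited lists of binding sites themselves. The intervals of all 5 lists were pooled, intervals that shared at least 1 base were merged, and the merged regions that held NeuroD2 intervals alone were kept. This gave 10412 regions of 60136 in all. Every one of the 10412 regions contained exactly 1 NeuroD2 interval, so a region and a site are the same thing below. Being absent from the other lists is the choice itself and not a result, and the scores and widths of these sites come from the list that the choice used, so they are given as a description.

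NeuroD2 is a neuronal transcription factor with a basic helix-loop-helix (bHLH) domain. Factors of this family dimerise through the helix-loop-helix, usually with an E protein, and contact the E-box, a short DNA motif, through the basic region. MyoD is the related factor that directs the skeletal muscle programme, and both proteins bind a great many places in the genome, some of them shared.

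Binding was mapped by ChIP-seq, the sequencing of immunoprecipitated chromatin, in P19 cells, a mouse embryonal carcinoma line that can be turned into neurons in culture. The cells were transduced with NeuroD2, with MyoD, with MD(ND2bHLH), which is MyoD carrying the bHLH domain of NeuroD2 and is called the chimera, or with 1 of its mutants, the one named MD(ND2bHLH)WC (WC for short) and the one named MD(ND2bHLH)WCS (WCS). The labels do not say what the letters of the mutants stand for. Per the labels, which give 1 protocol for all samples, P19 cells were infected with polybrene at 8 µg/ml, got fresh medium after 24 h and a neuronal medium after 48 h. NeuroD2 was precipitated with NeuroD2 antibodies 1165 and 1240. MyoD antibodies 6196 and 6975 were used for every other transduced protein. Each group has 2 libraries, 1 per antibody, and the labels of both point to 1 list, so the files hold no replicate spread and no test between proteins was made. The negative controls were 2 libraries of untransduced cells, made with antibodies 1240 and 6975, and none of their sites were analysed here. A region in the NeuroD2 list alone is therefore also a region seen with the NeuroD2 antibodies alone, and the protein and the antibody cannot be told apart.

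Of the 31458 NeuroD2 sites, 33.1% lay in regions of NeuroD2 alone. These sites covered 3.41 Mb, or 28.2% of the bases of the NeuroD2 list. The same share was 53.6% for MyoD, with 13371 of 24935 sites alone, 13.7% for chimera sites, 14.0% for WC sites and 8.14% for WCS sites. Regions with neither WC nor WCS held 11473 NeuroD2 sites, or 36.5% of the list, and 10412 of these were also absent from the MyoD and chimera lists. With the WC and WCS lists left out, a setting chosen after the data were seen, 21800 regions were of NeuroD2 alone. Leaving out the MyoD list gave 11026 regions and leaving out the chimera list 10655. Cutting weak sites from every list removes NeuroD2 sites and also sites that overlapped them. A NeuroD2 site that was shared in the full lists can then count as alone, so the next 2 counts are not subsets of the 10412 regions. The count was 5604, or 35.6% of the NeuroD2 sites kept, with the 50% of each list with the highest scores. It was 4053, or 28.2%, with every list, NeuroD2's included, cut to its 14375 sites of highest score, the length of the chimera list.

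Sites of NeuroD2 alone were mostly weak on the authors' scale. The deposited score has no stated unit. All scores lie above 5, a few are infinite, and they rank sites within a list only. The median score of the 10412 sites was 7.48, against 13.7 for the other 21046 NeuroD2 sites. The lower and upper quartiles were 5.89 and 10.7 in sites of NeuroD2 alone, and 7.91 and 26.9 in the other sites. Scores under 10 were found in 7379 sites of NeuroD2 alone, or 70.9%, and in 36.0% of the other NeuroD2 sites. The comparison depends on which lists share the site. NeuroD2 sites of the regions held with both WC and WCS, but with neither MyoD nor the chimera, had a median score of 15.6. Those of regions in all 5 lists had a median of 19.6, and those of regions in every list except MyoD's 22.1. By contrast, NeuroD2 sites shared with MyoD alone had a median of 7.31, and those shared with the chimera alone 7.15, so neither group scored above the sites of NeuroD2 alone. Sites shared with WC alone had a median of 9.50 and those shared with WCS alone 8.61. By median score the order thus ran from sites shared with MyoD or the chimera alone and sites of NeuroD2 alone, through sites shared with 1 mutant, to sites shared with both mutants, with all lists and with all lists except MyoD's.

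**Figure D1:**
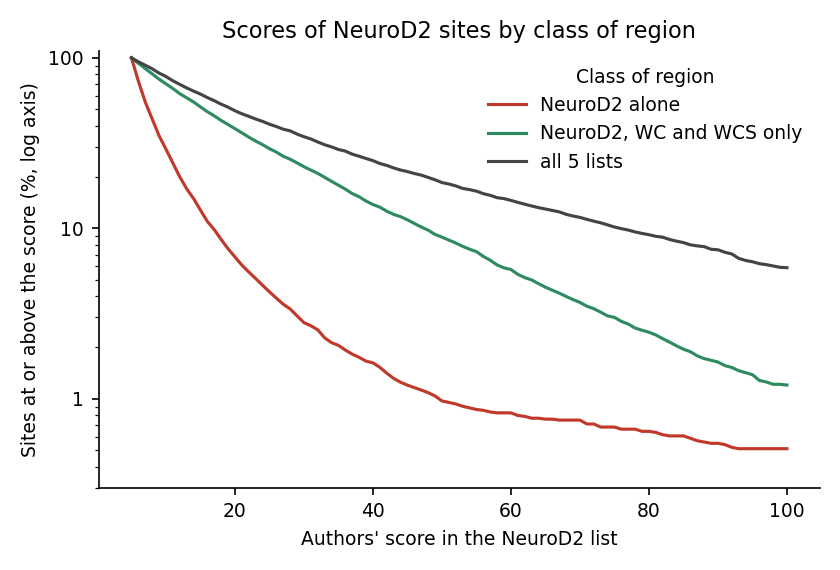
Share of NeuroD2 sites (vertical, percent, log axis) at or above each value of the authors' score (horizontal) for regions of NeuroD2 alone, regions of NeuroD2, WC and WCS only, and regions of all 5 lists. The curve of NeuroD2 alone falls fastest, with 70.9% of its sites under a score of 10, and then flattens, with 53 sites at 100 or more.

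The share of NeuroD2 sites that were alone fell steadily with score. The list was cut into 10 equal parts by score. In decile 1, with scores of 5.03 to 5.56, 58.8% of NeuroD2 sites were alone (exact Clopper-Pearson 95% interval 57.05 to 60.5%). In decile 5 the share was 38.4%, and in decile 10, with scores of 40.2 and above, it was 5.28% (4.52 to 6.12%). These intervals cover counting error only. The other lists showed a fall as well. MyoD sites were alone in 72.1% of decile 1 and 16.4% of decile 10, chimera sites in 26.0% and 1.25%, and WC sites in 36.2% and 0.185%. NeuroD2 lay below MyoD and above the 3 chimeric proteins in every decile.

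At the extreme top of the list the pattern turned round. All 34 NeuroD2 sites with an infinite score rank together at the head of the list, and 29 of them, or 85.3% (68.9 to 95.0%), were in regions of NeuroD2 alone. That interval treats the sites as independent. Since 15 of the 29 lay in 1 stretch of chromosome 9, it is too narrow. Among ranks 35 to 100 the share was 15.2% (7.51 to 26.1%), and among ranks 201 to 500 it was 3% (1.38 to 5.62%). It was 3.2% in ranks 501 to 1000, lowest at 2.5% (1.62 to 3.67%) in ranks 1001 to 2000, and then 6.15% in ranks 2001 to 4000 and 12.3% in ranks 4001 to 8000. Of the 5 infinite sites that were not alone, 3 were in all 5 lists, 1 was in every list except MyoD's and 1 was shared with the chimera alone. In the other lists the top sites were shared. Of its sites with an infinite score, MyoD had 0 of 11 alone, WC 0 of 8 and WCS 0 of 6, and the chimera list has no infinite score. Among the 100 sites of highest score, 39 NeuroD2 sites were alone, against 3 MyoD sites and 0 sites of the chimera, WC or WCS. The count was lower where crowded windows were removed. With windows of 100 kb that held 10 or more sites of any list left out, 22 of the 100 highest NeuroD2 sites were alone, against 4 of the 100 highest MyoD sites. The lists also differ in their range of widths. The widest site had 1947 bases in the MyoD list and 3746 in the chimera list. It had 16023 in the NeuroD2 list, 18276 in the WC list and 16044 in the WCS list. Whether all lists were filtered alike is not known. How uniquely reads map at the top sites was not tested.

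**Figure D2:**
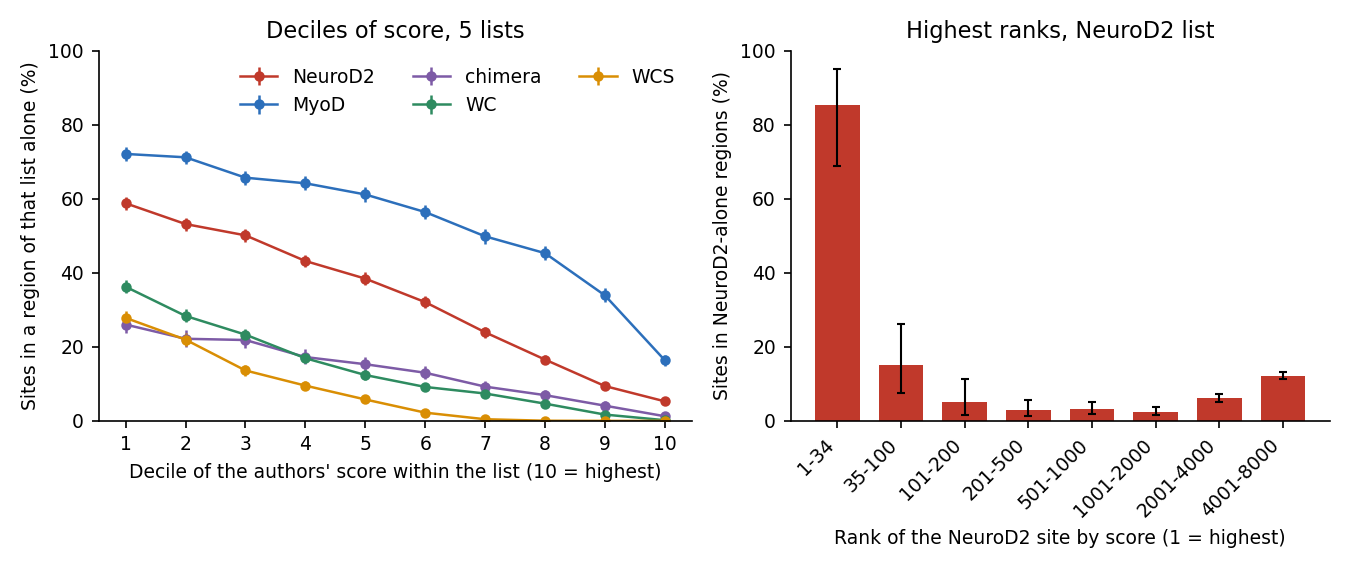
Left, share of sites (percent) in a region of their own list alone by decile of the authors' score, for the 5 lists, with exact 95% intervals. Right, the same share for NeuroD2 sites by rank from the highest score, which is 85.3% for ranks 1 to 34 and 3% for ranks 201 to 500.

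The sites of infinite score were concentrated in a few places. Of the 29, 17 lay on chromosome 9, 15 of them within 1 stretch of 38.6 kb at the start of the assembled chromosome. Another 4 lay next to each other on chromosome 2 between 98502240 and 98507643 (mm9, 1-based, as for all positions here). The other 8 were on chromosomes 4, 6, 12, 13, 15, 18 and X, with 2 of them on chromosome 12. The widest site of infinite score ran from 3024474 to 3027974 on chromosome 9, over 3501 bases. Its nearest WC and WCS sites were 9.10 and 9.11 kb away, and its nearest MyoD site was 504 kb away. The next on the same chromosome ran from 3021932 to 3023919. Within that stretch the sites from 2999852 to 3001613, 3018179 to 3019556, 3035540 to 3036757, 3031716 to 3032882 and 3004265 to 3005332 also belong to the 10 that lead the list of NeuroD2 alone when infinite scores are ordered by width. The site from 3035540 was 321 bases from a WC site and 325 from a WCS site, so the mutants were listed beside it but not on it.

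Away from that stretch most of the leading sites had no close site of another list. The site on chromosome 15 from 74915805 to 74917630, with an infinite score and 1826 bases, was the only NeuroD2 site in its 100 kb window. Its nearest MyoD site was 27.0 kb away and its nearest site of a chimeric protein 129 kb away. The site on chromosome 18 from 3005119 to 3006530 differed in this respect, with a WC site at 63 bases and a WCS site at 64. On chromosome 2 the sites from 98506245 to 98507643, 98502240 to 98503300, 98503678 to 98504401 and 98504888 to 98505505 were the 4 NeuroD2 sites of their window, and their nearest WC sites were 326 to 329.8 kb away. Single sites of infinite score were found at 75904745 to 75905643 of chromosome 12, at 103598897 to 103599438 of chromosome 6 and at 24346309 to 24346755 of chromosome 9. The site on chromosome 6 had its nearest WC site at 23.6 kb and its nearest chimera site at 1133 kb. A second site on chromosome 12, from 3109719 to 3110277, lay in a window with 2 NeuroD2 sites, both of them of NeuroD2 alone.

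The sites with the highest finite scores outside crowded windows, picked after their values were seen, differed in how near the other lists came. The site on chromosome 12 from 68160014 to 68161030 scored 301.9 and lay 13.3 kb from the nearest WC site. A wide site on chromosome 17 from 39979797 to 39985908 spanned 6112 bases with a score of 273.4, and its nearest site of another list, a WC site, lay 205 kb away. The site on chromosome 16 from 10975026 to 10975430 scored 270.7 over 405 bases, with a WC site 1.34 kb away and a MyoD site 3.77 kb away. Scores of 100 or more were rare, at 53 of the 10412 sites, against 481 of the 21046 other NeuroD2 sites. No gene is named beside any site, because neither an annotation nor a genome of mm9 was used here, and no sequence is printed.

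Sites of NeuroD2 alone were narrower than other NeuroD2 sites, in step with their lower scores. Their median width was 292 bases (quartiles 245 and 355), against 368 for the other sites (297 and 471). Width rose with score in both sets, with a Spearman rho of 0.68 over the 10412 sites of NeuroD2 alone and 0.79 over the 21046 others, given as a description since neighbouring sites share libraries. At equal score most of the difference was gone. The median widths were 226 bases alone and 229 otherwise in decile 1, 313 and 319 in decile 5, and 559 and 560.5 in decile 10. The largest gap between them was 430.5 against 455 bases in decile 9. A narrow interval has less room to overlap another, so width is bound up with the way the regions were chosen. Sites alone were narrower in the other lists too. Their median width was 337 bases, against 383.5 for the other sites of the list, for MyoD, and 379 against 442 for the chimera. It was 277 against 362 for WC and 233 against 339 for WCS.

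Few of these regions were near misses by distance. Signal of another protein that fell short of its list cannot be seen here. Only 68 of 10412 lay within 50 bases of a site of another list, with a median score of 7.18. On the other side of the threshold, 32 NeuroD2 sites had an overlap of at most 50 bases, with a median score of 6.53. The nearest cases without overlap were the sites on chromosome 6 from 56273154 to 56273392, at 2 bases from a WC site, on X from 50398112 to 50398317, at 3 bases, and 42745315 to 42745693 of chromosome 13, at 4 bases. The smallest overlaps were 2 bases with a MyoD site on chromosome 3 (105520882 to 105521163), 2 bases with a chimera site on the same chromosome (109568534 to 109568959) and 3 bases with a WC site on chromosome 15 (31557142 to 31557669). By position the division was clear, since NeuroD2 sites that did overlap another list shared a median of 95.2% of their length with it. Requiring an overlap of 50% of the shorter site gave 10504 sites of NeuroD2 alone.

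Many regions of NeuroD2 alone still had a site of another protein in the neighbourhood. A site of any other list lay within 1 kb of 14.0% of them, within 5 kb of 36.3% and within 100 kb of 92.9%. The median distance was 9.22 kb. WC sites were the nearest for 37.4% of the regions, MyoD sites for 29.0%, WCS sites for 18.9% and chimera sites for 14.7%, which is also the order of the lengths of the lists. The score changed little with distance. Its median was 7.82 in the 165 regions within 100 bases of another list, 6.89 in the 604 regions at 500 to 1000 bases, and 7.91 in the 744 regions more than 100 kb away.

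The same distances were taken for regions of MyoD alone. On the autosomes, where all lists have sites, a WC site lay within 1 kb of 9.14% of the NeuroD2-alone regions and 6.63% of the MyoD-alone regions. For WCS the shares were 7.82% and 5.83%. For the chimera the order was the other way, at 4.14% of NeuroD2-alone and 5.95% of MyoD-alone regions. The order was the same at 10 kb, with 38.4% and 35.5% for WC, 34.2% and 31.5% for WCS, and 22.7% and 26.7% for the chimera. At 100 kb it turned round for the mutants, with 87.3% of NeuroD2-alone and 90.3% of MyoD-alone regions for WC and 83.4% and 86.8% for WCS, and the chimera shares were 71.95% and 81.1%. Each pair of shares refers to the same list of sites, so list length does not enter. Both sets lack overlap with these lists by choice, and the differences were not tested. The nearest WC site was at up to 500 bases for 513 autosomal NeuroD2-alone regions, at 500 to 1000 bases for 411 and at 4500 to 5000 bases for 178. Each region counts once, at its nearest site, so some fall with distance is built in. Within 5 kb, 25.9% of these regions had been counted. For MyoD sites the corresponding numbers were 271, 266 and 142. Counts of the nearest WC site fell for MyoD-alone regions as well, with 483, 404 and 214 of those regions at the same distances.

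**Figure D3:**
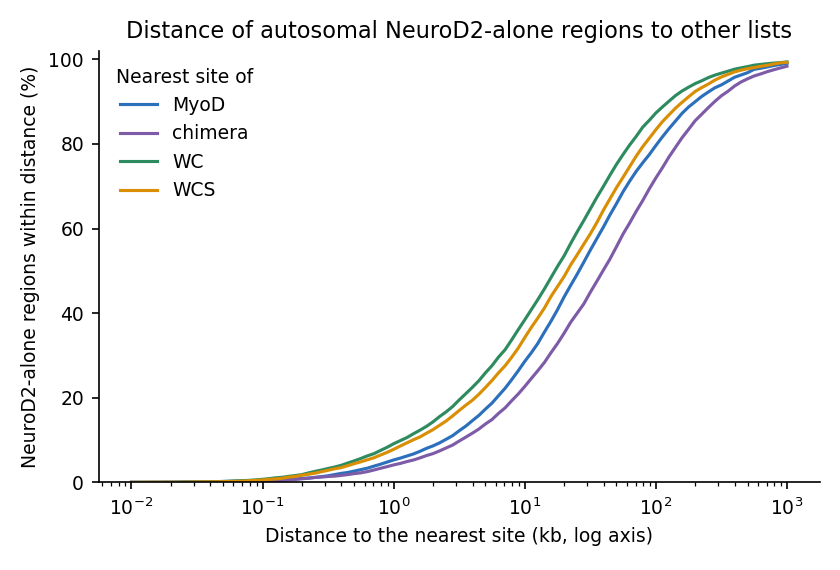
Share of the 10104 autosomal regions of NeuroD2 alone (vertical, percent) with a site of MyoD, the chimera, WC or WCS within a given distance (horizontal, kb, log axis). WC sites are closest, with a site within 10 kb of 38.4% of the regions, and chimera sites, from the shortest list, are farthest, at 22.7%.

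Regions of NeuroD2 alone tended to lie beside one another. The nearest other NeuroD2 site was itself of NeuroD2 alone for 39.7% of them, against 29.0% of the other NeuroD2 sites, where 33.1% of all NeuroD2 sites are alone. Outside crowded windows the shares were 38.6% and 30.0%. The distance to that neighbour had a median of 10.1 kb for sites of NeuroD2 alone and 8.71 kb for the others. Most regions were nevertheless scattered. They fell into 6745 windows of 100 kb, of which 4560 held 1 region, 2074 held 2 to 4, 88 held 5 to 9 and 23 held 10 or more. These last 23 windows contained 433 regions. Crowded windows, counted over all lists, held 9.83% of the NeuroD2-alone regions and 11.3% of the other NeuroD2 sites.

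In the 4 autosomal windows with the most regions of NeuroD2 alone, sites of the other lists were few. The next window, from 146800001 on chromosome 4, had 24 such regions among 33 NeuroD2 sites, beside 1 MyoD, 5 chimera, 10 WC and 7 WCS sites. In the window from 90100001 on chromosome 1 there were 62 NeuroD2 sites, 57 of them alone, against 2 MyoD, 5 chimera, 1 WC and 0 WCS sites. They ran from 90108439 to 90200031, at a median step of 1263 bases between centres, and covered 46.1% of that span. The window before it had 0 NeuroD2 sites and the window after it 7. All 57 scored low, from 5.03 to 13.9, with a median of 6.26, and their median width was 565 bases, where all sites of NeuroD2 alone in decile 2 of the score (5.56 to 6.34) had a median of 251. A second block on chromosome 1, in the window from 173400001, had 38 NeuroD2 sites, 34 of them alone, with scores of 5.21 to 21.2 and a median of 7.19. MyoD had 2 sites there, the chimera 1, WC 3 and WCS 3.

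The block on chromosome 3 was the most completely covered of the 5 leading windows. Between 25416325 and 25456297 there were 32 NeuroD2 sites, 25 of them alone, over 77.7% of the span, and both flanking windows of 100 kb had 0 NeuroD2 sites. Scores of the 25 reached no more than 11.0, with a median of 7.64 and a median width of 724 bases. The window on chromosome 9 from 3000001 was of another kind. It held 30 NeuroD2 sites, 27 of them alone, with scores of 9.64 and above and 15 infinite, over 59.3% of the 38.6 kb from 2999852 to 3038408. WC and WCS had 4 sites each there, the chimera 1 and MyoD 0. On chromosome X the window from 121200001 had 40 NeuroD2 sites, 25 of them alone, beside 15 WC and 14 WCS sites, with a median score of 18.5 for the 25. Low scores with wide sites thus marked the blocks on chromosomes 1 and 3, and high scores the blocks on chromosomes 9 and X. Among these 5 windows the median step between centres was also shorter in the blocks of high score. It was 980 bases on chromosome 9 and 1024 on X, against 1190 on chromosome 3 and 1263 and 1525 on chromosome 1. This difference was not tested. No input or untransduced signal was set beside these blocks, so whether they are raised in cells without NeuroD2 was not tested.

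**Figure D4:**
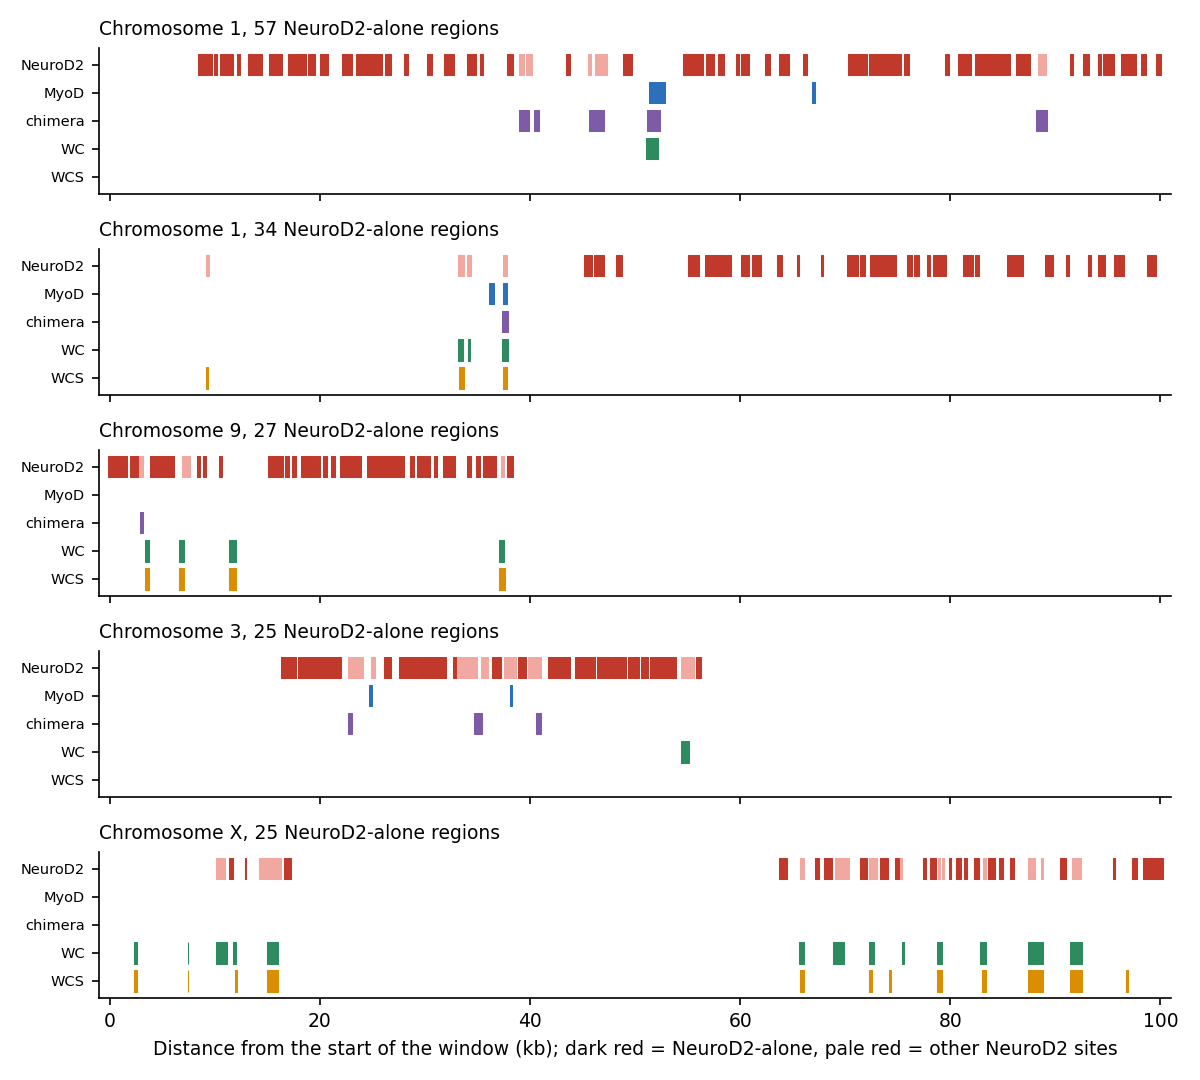
Sites of the 5 lists in the 5 windows of 100 kb with the most regions of NeuroD2 alone, by distance from the start of the window (horizontal, kb), 1 row per list. NeuroD2 sites (dark red where alone) outnumber those of each other list in the blocks with 57, 34, 27, 25 and 25 such regions. Sites of the other lists are few in the autosomal blocks, and the block on X has 15 WC and 14 WCS sites.

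Chromosome X had the largest share of NeuroD2 sites that were alone, 54.0% of 570 sites (49.8 to 58.2%), against 32.7% on the autosomes. The MyoD and chimera lists hold no site on X, so these shares cannot be set side by side as they stand. Against WC and WCS only, which do have sites there, 54.0% of NeuroD2 sites on X and 36.1% of those on the autosomes lay in regions with neither mutant (35.6 to 36.7% on the autosomes). Outside crowded windows the shares were 49.0% on X and 36.6% on the autosomes. The sites of NeuroD2 alone also scored higher on X, with a median of 9.31, against 7.48 on the autosomes. On X these sites are alone against WC and WCS only, so the 2 sets are not alike. The other NeuroD2 sites had medians of 13.6 on X and 13.7 on the autosomes. Medians of score outside crowded windows were not taken. The difference in share between X and the autosomes was larger than the counting intervals, but no replicate list shows how far it would vary.

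Among the autosomes the share alone ran from 29.7% on chromosome 17 (27.3 to 32.2%) to 37.9% on chromosome 13 (35.1 to 40.8%). Chromosome 3 came next to the top with 37.0%, and chromosomes 5 and 8 next to the bottom with 30.1% and 30.2%. Most neighbours in this order have overlapping intervals, and the ends do not. Between the share alone and the median score of all NeuroD2 sites the Spearman rho was −0.51 over 19 autosomes, which share libraries and lists. That median includes the sites of NeuroD2 alone, which score lower, so a larger share lowers it by construction. No relation between chromosomes is read from this rho.

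**Figure D5:**
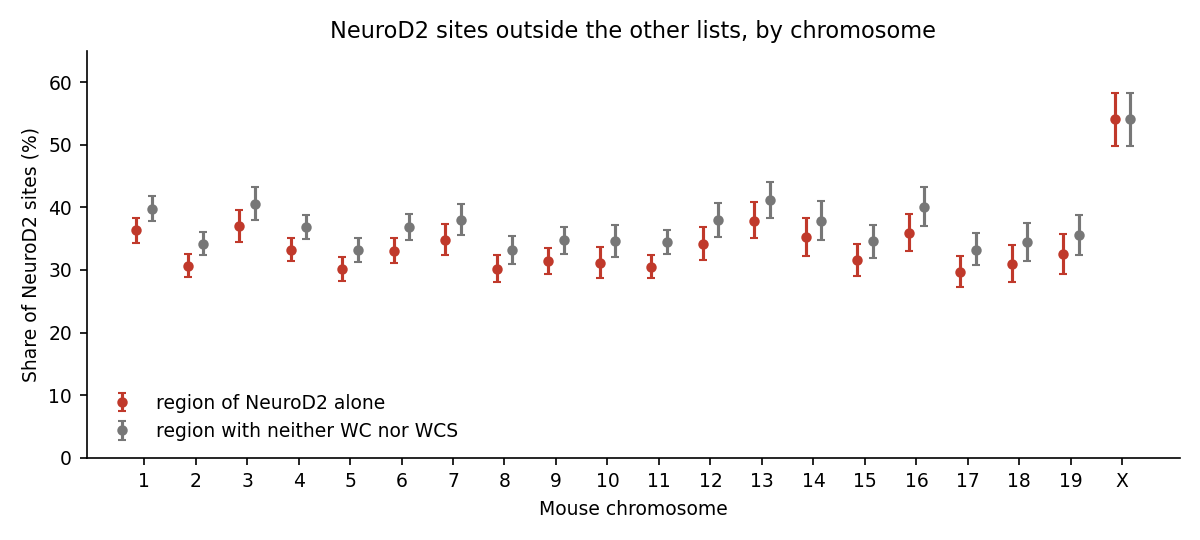
Share of NeuroD2 sites (vertical, percent) in regions of NeuroD2 alone (red) and in regions with neither WC nor WCS (grey) on each mouse chromosome, with exact 95% intervals. Chromosome X lies at 54.0% in both, above all 19 autosomes.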

How the data were processed

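Reads were handled with CASAVA 1.8.2 and BWA 0.7.5 on build mm9, per the submitters' processing notes. Peak caller, background, filters and any pooling: not given in the sources used here. The deposited files give 1 list of sites per transduced group, with start, end and a score of unstated unit (lowest 5.00, highest finite 312.2, 59 infinite). Starts were read as BED and are printed 1-based. Read depth is unknown. Sites sharing 1 base were merged over the 5 lists, and distances are bases between intervals. Sites were named by rank of score, by distance and by number per 100 kb window, with exceptions marked. The regions and the quantities were chosen with earlier results of these data known. No test was made, since each group has 1 list. Planned results on E-boxes, gene starts and gene lists need mm9 sequence or gene models and were left out. Alternatives changed the overlap, merging distance, site width, list length, chromosomes, crowded windows and lists used. Merging and distances were tested on simulated data. Software was Python 3.11.15 with scipy 1.17.1, pandas 2.3.3, matplotlib 3.10.9 and numpy 2.4.6.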

Additional observations from a re-analysis of the deposited data

How the results depend on the processing

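The median score and the median width stayed lower in sites of NeuroD2 alone than in other NeuroD2 sites under all 12 alternatives that could change them, where the main differences were −6.21 and −76 bases. Share means the share of NeuroD2 sites alone (33.1%), and near share the share of those within 1 kb of another list (14.0%). With an overlap of 50% of the shorter site the near share was 14.8%. With sites within 500 bases merged the share was 30.01%, the score difference −5.77 and the near share 5.56%. With 300 bases around each centre the share was 33.8% and the near share 14.8%. With lists shortened to 14375 sites there were 4053 regions, a share of 28.2%, differences of −8.77 in score and −63 bases in width, and a near share of 9.60%. With the upper 50% of each list there were 5604 regions, a share of 35.6%, differences of −9.92 and −69 bases, and a near share of 8.30%. Without crowded windows the near share was 11.7%. Without the MyoD list the share was 35.05%, the differences −6.58 and −79 bases, and the near share 11.8%. Without the chimera list the share was 33.9%. Without the WC list the share was 40.8%, the score difference −6.86 and the near share 12.2%. Without the WCS list the share was 36.9%, the score difference −6.57 and the near share 13.3%. Without both mutant lists, added after seeing the data, there were 21800 regions, a share of 69.3%, differences of −5.69 and −56 bases, and a near share of 7.89%. At 500 bases the near share was 8.21% and at 5 kb 36.3%. Shorter lists and fewer lists change these values by construction. Restricting all lists to 19 autosomes and a common range of widths left 10140 regions. No paired analysis was possible because the 2 libraries of a group share 1 list. For the same reason no replicate could be left out.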

Other observations

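Runs of NeuroD2-alone regions, defined after the data were seen as at least 10 such regions with at most 5 kb between neighbours, numbered 11 and held 232 regions, or 2.23% of the total. Of these runs, 4 contained no WC or WCS site. The longest, on chromosome 1 from 90148867 to 90207223, covered 58.4 kb with 35 regions of NeuroD2 alone and 36 NeuroD2 sites in all. The run from 173455008 to 173499558 on chromosome 1 had 30 NeuroD2 sites, every one alone, and no site of any other list. The run on chromosome 16 from 3231595 to 3266752 had 21 regions of NeuroD2 alone beside 4 WC and 4 WCS sites, and NeuroD2 sites covered 60.2% of it. The run on chromosome X from 166407693 to 166434191 had 14 regions of NeuroD2 alone with a median width of 1331 bases, and NeuroD2 sites covered 85.0% of it. Smaller runs of 10 regions lay at 57154909 to 57167244 of chromosome 10 and at 145661568 to 145670921 of chromosome 4, both with 0 sites of any other list and with median scores of 5.39 and 6.18.

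Below position 4 Mb lay 146 regions of NeuroD2 alone, or 1.40% (1.19 to 1.65%), and 132 other NeuroD2 sites, or 0.627% (0.525 to 0.743%). Of the sites with an infinite score, 17 of 29 alone and 1 of 5 others lay there. The block on chromosome 9 supplied 27 of the 146 regions and 15 of the 17 infinite scores.

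The widest region of NeuroD2 alone spanned 13222 bases on chromosome 11 from 3051955 to 3065176, with a score of 158.2. It stood in a window with 22 NeuroD2 sites, 16 of them alone. The region farthest from any other list on an autosome, a choice made after the data were seen, lay on chromosome 12 from 63869974 to 63870264, 1621 kb from the nearest MyoD site, with a score of 8.97. On chromosome X the 3 farthest regions lay together from 144135009 to 144149652, 2177 to 2191 kb from the nearest WC site, with scores of 5.39 to 6.49.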
